A study of Mus musculus with 6 samples.

Results

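Integrins, laminins, collagens and a few companion matrix genes were examined in 1 deposited expression profile. The members were the gene symbols that begin with Itga, Itgb, Lama, Lamb, Lamc or Col followed by a chain number, together with Fn1, Vtn, Nid1, Nid2, Sparc and Hspg2. The rule found 83 of the 18312 genes in the table. They were 12 integrin alpha chains, 9 integrin beta chains, 9 laminin chains, 42 collagen chains, the 6 genes named singly, and 5 genes whose symbols fit the pattern but which encode other proteins. The integrin alpha chains named with a letter, among them Itgav, fall outside the pattern and are given below as companions. Lama1, Lama3, Col17a1 and Col26a1 were not analysed here.

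The study asked which mRNAs the RNA-binding proteins Brf1 and Brf2 bind in mouse embryonic stem cells. Its 6 libraries came from wild-type (wt) E14 mESCs, an established stem cell line of 129/Ola background, grown in DMEM with 15% FBS and 1000 U/ml LIF. They form 3 groups of 2, namely RNA precipitated from cytoplasmic extract with an anti-Brf1/2 antibody, RNA precipitated with rabbit IgG as the control, and total RNA without precipitation. The 1 table analysed here holds 22625281 counts and no label or header ties it to a library, so it was placed in no group. Every value below is therefore a single value without replicates, and no comparison between the groups was made. A level in it could be that of total RNA, of RNA from either precipitation, or of a mix of libraries. In a bulk profile, fewer cells of a type and less RNA per cell cannot be told apart.

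Integrins are cell surface receptors, each built from 1 alpha and 1 beta chain, that join the matrix outside the cell to actin inside it. Laminins are trimers of an alpha, a beta and a gamma chain. They polymerise into the basement membrane, the sheet under epithelia, where nidogens, perlecan and type IV collagen link up with them. Embryonic stem cells are known to adhere to laminin through beta1 integrins, and basement membrane is the first matrix that the early embryo lays down. Fibrillar collagens such as types I and III are the matrix of connective tissue.

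Brf1 and Brf2, the products of Zfp36l1 and Zfp36l2, bind mRNAs at AU-rich elements downstream of the stop codon, and TATTTAT is the DNA spelling of their core element. Of the 75 members with a matched 3′ untranslated region, 28 (37.3%) held at least 1 TATTTAT on the sense strand, against 3303 of the 13566 genes of the whole table with such a region (24.3%). The median region was 965 nt long in the members and 788 nt in the whole table, with median AT contents of 54.9% and 55.4%. Among the 29 members at 1 FPKM or more, 14 (48.3%) held the element, against 2324 of all 8308 genes at that level. The longest coding transcript of each gene gave 36.6% of 82 members and 29.1% of all genes. Those shares describe sequence, not binding.

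The single sites of the most abundant receptor and basement membrane chains that carry the element are shown because such elements are what the study's proteins are known to bind. Each is read 5′ to 3′ from the transcript, in the DNA alphabet of GENCODE M21 on GRCm38, with TATTTAT in capitals and 8 bases on either side.
Itgb1, chr8:128733156-128733178, plus strand: actgaagtTATTTATtaaaataa
Itga3, chr11:95045554-95045576, minus strand: ttccttccTATTTATcataaatt
Itga6, chr2:71856618-71856640, plus strand: gtatatgaTATTTATttttttct
Itga5, chr15:103344542-103344564, minus strand: tagaaaccTATTTATccctgact
Lama5, chr2:180176428-180176450, minus strand: agatattaTATTTATactttgtt
Lamc1, chr1:153218943-153218965, minus strand: cagtatttTATTTATaataaaat
Nid2, chr14:19811643-19811665, plus strand: tcagacttTATTTATactaaggt
Fn1, chr1:71585683-71585705, minus strand: ctgtttgtTATTTATcaattttt

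Of these 8 sites, that of Itgb1 alone extends to the 9-base form TTATTTATT, which 9.33% of the members and 6.23% of all genes held. The Itgb1 site starts 1076 bases after the stop codon in a region of 1112 nt. The Lamc1 site also lies near the end of its region, at base 2516 of 2551, and that of Lama5 lies at base 105 of only 174. Several abundant members had no TATTTAT in the region used, among them Sparc, with 1085 nt, Col18a1, with 1016 nt, and Hspg2, with 965 nt. Itgb5 and Lamb1, with 586 and 151 nt, had none either. Overlapping copies occurred in Itga8, a receptor chain with 3 sites at bases 523, 527 and 807, and in the cartilage collagens Col2a1, at bases 202 and 206, and Col10a1, at bases 877 and 881.

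**Figure D1:**
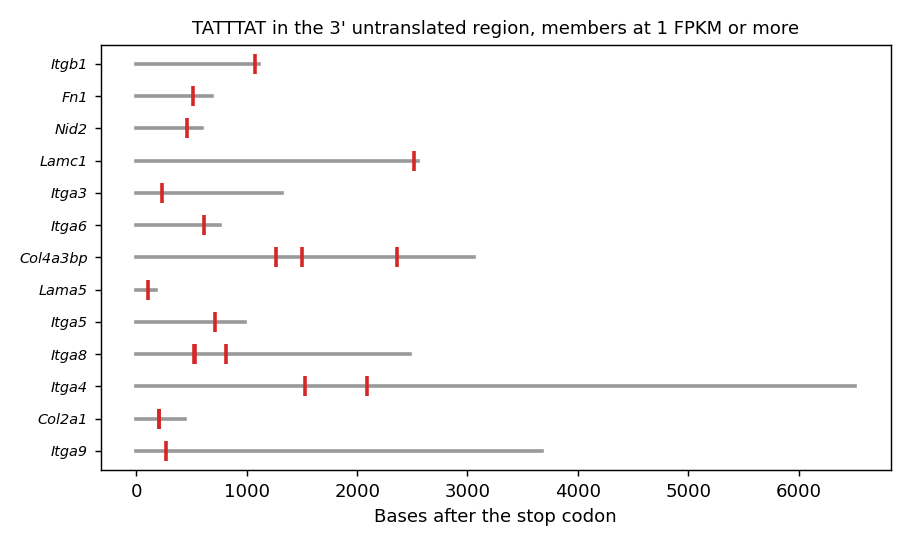
Grey lines show the 3′ untranslated region of 13 of the 14 members at 1 FPKM or more that hold TATTTAT, ordered by FPKM from the top, with the x axis in bases after the stop codon. Red ticks mark the start of each site; in Itgb1 and Lamc1 the site lies close to the 3′ end, and overlapping sites in Itga8 and Col2a1 merge into 1 tick.

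Levels are given as the authors' FPKM, which corrects counts for library total and for an effective transcript length, with the bounds of the authors' table, which cover counting error only. A chain at 1 FPKM or more is counted as detected at that threshold. Of the 83 members, 29 (34.9%) reached it, against 56.0% of all genes in the table. The members' median was 0.529 FPKM, against 1.94 FPKM over all genes, and the members together held 0.425% of the counts. The classes differed widely in this share. It was 5 of the 6 matrix genes named singly, 5 of 9 laminin chains, 6 of 12 integrin alpha chains, 3 of 9 integrin beta chains and 7 of 42 collagen chains.

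The ratio of the effective length that the authors' program assigned to the length of the transcript model had a median of 1.57 in the members and 1.27 in all genes, and was below 1 for some members, such as Itgb1. On the model length 35 members (42.2%) reached 1 FPKM, against 58.2% of all genes. The 6 added were Col1a1, Col7a1, Itga1, Itgb4, Itgb8 and Itgb1bp3. Levels on the model length are given below for the main chains whose order, threshold or ratio they change. The order of chains with close levels is tied to the effective length.

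Among receptors, Itgb1, the beta chain shared by most matrix-binding integrins, was the highest member of all. It had 130 FPKM (128 to 133) from 11197 counts and ranked 419 among the 18312 genes. Itgb5, a partner of Itgav, followed at 12.8 FPKM (12.2 to 13.4), and Itgb7, a chain known from lymphocytes, had 2.46 FPKM (2.14 to 2.78). No interval of these 3 beta chains overlapped another. On the model length Itgb1 was at 118 FPKM and Itgb5 at 22.9 FPKM, so the order held and the gap was smaller.

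Below 1 FPKM were Itgb8 at 0.897 FPKM, the hemidesmosome chain Itgb4 at 0.840 FPKM and Itgb3, the platelet and bone-cell chain, at 0.544 FPKM. The intervals of Itgb8 (0.692 to 1.1) and Itgb4 (0.723 to 0.958) overlap, and on the model length Itgb4, at 1.5 FPKM, was above Itgb8, at 1.1 FPKM. Itgb6, an epithelial chain, had 0.165 FPKM and the leukocyte chain Itgb2 had 0.142 FPKM, from 20 and 14 counts, with overlapping intervals and the reverse order on the model length (0.181 FPKM for Itgb6 and 0.216 FPKM for Itgb2). Itgb2l had 0 counts, which allows up to 0.0388 FPKM.

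Of the alpha chains, those of laminin and fibronectin receptors led. Itga3, a laminin receptor chain, had 19.3 FPKM (18.7 to 19.9) from 3810 counts. Itga6, the other major laminin receptor chain, had 18.6 FPKM (17.9 to 19.2) from 3094 counts. These intervals overlap, and the ratio of Itga3 to Itga6 was 1.04 (exact 95% counting interval 0.992 to 1.09), so the 2 levels were not distinguishable at this depth. On the model length the ratio was 1.07 (1.02 to 1.12). Itga5, the alpha chain of the classical fibronectin receptor, came next at 11.8 FPKM (11.2 to 12.4), below both laminin receptor chains.

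A second tier of alpha chains lay between 1 and 2 FPKM. It held Itga8, a receptor chain for fibronectin, vitronectin and nephronectin, at 1.92 FPKM (1.67 to 2.16). Itga4, which binds fibronectin and VCAM1, had 1.37 FPKM (1.20 to 1.53), and Itga9 had 1.03 FPKM (0.896 to 1.16), an interval that spans the threshold. The order of these 2 turned round on the model length, with Itga9 at 1.49 FPKM, above the threshold beyond its interval, and Itga4 at 1.22 FPKM. The third laminin receptor chain, Itga7, had 0.422 FPKM and was 0.0227 of Itga6 (0.0179 to 0.0285).

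Receptor chains for collagen were all 4 below 1 FPKM. Itga1 had 0.753 FPKM (0.625 to 0.881) and reached 1.02 FPKM only on the model length. Itga10 had 0.162 FPKM, Itga11 had 0.116 FPKM and Itga2 had 0.0522 FPKM, from 29, 23 and 6 counts. Itga1 was thus 14.4 times Itga2, with a wide counting interval of 6.47 to 40.0. Itga2b, the platelet fibrinogen receptor chain, had 0.137 FPKM.

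Of the 6 alpha chains named with a letter, Itgav alone reached 1 FPKM, at 7.99 FPKM (7.56 to 8.42). It pairs with several beta chains to bind vitronectin and fibronectin. The leukocyte chains Itgal, Itgae, Itgam, Itgax and Itgad ranged from 0.0180 to 0.586 FPKM. Itgav was 0.623 of Itgb5 (0.580 to 0.670), and 0.377 on the model length, because the effective length of Itgb5 is further above its model length. Their ligand Vtn, the serum protein vitronectin, had 0 counts, with a limit of 0.0519 FPKM.

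**Figure D2:**
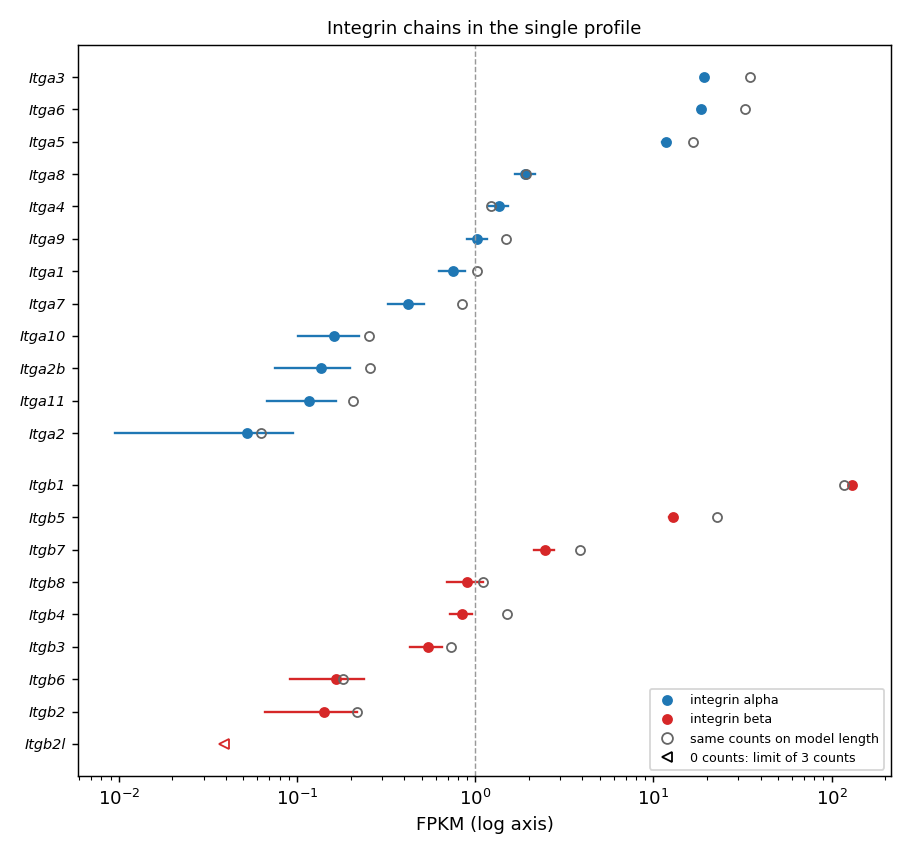
FPKM of the 12 integrin alpha chains (blue) and 9 beta chains (red) on a log axis, with the authors' bounds as lines, the same counts on the model length as open circles, and a dashed line at 1 FPKM. Itgb1 at 130 FPKM stands apart from the other beta chains, and Itga3, Itga6 and Itga5 stand apart from the other alpha chains.

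The alpha chains that pair with Itgb1 (Itga1 to Itga11 without Itga2b, and Itgav) summed to 63.4 FPKM, which is below the 130 FPKM of Itgb1 itself. On the model length the sum was 99.6 FPKM and Itgb1 was at 118 FPKM, so the gap narrowed and kept its direction. Single alpha to beta1 ratios depended on the length in the same way. Itga3 to Itgb1 was 0.148 on the effective length and 0.294 on the model length, Itga6 to Itgb1 was 0.142 and 0.276, and Itga5 to Itgb1 was 0.0904 and 0.142. The effective length of Itgb1 is 0.905 of its model length, against 1.8 for Itga3 and 1.75 for Itga6.

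Lamc1, Lamb1 and Lama5 led the laminin chains. Lamc1, the gamma chain of most laminins, had 28.8 FPKM (28.2 to 29.5) from 8500 counts. Lamb1, the common beta chain, had 15.7 FPKM (15.2 to 16.2) from 3591 counts, and Lama5, the broadly used alpha chain of embryonic and epithelial basement membranes, had 15.3 FPKM (14.9 to 15.7) from 6854 counts. Lama5 and Lamb1 were not distinguishable, with a ratio of 0.973 (0.934 to 1.01). Lamc1 exceeded both, by 1.89 times for Lama5 (1.83 to 1.95) and 1.84 times for Lamb1 (1.77 to 1.91). All 3 ratios stayed within these intervals on the model length.

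Other laminin chains were lower. Lamb3, an epidermal beta chain, had 0.529 FPKM (0.412 to 0.645). Lamb2, known from the neuromuscular junction and the kidney filter, had 2.46 FPKM (2.26 to 2.67), or 0.157 of Lamb1 (0.144 to 0.171). Lama4, the endothelial alpha chain, had 0.556 FPKM and was 0.0364 of Lama5 (0.0301 to 0.0436). Lamc3 and the muscle alpha chain Lama2 were near the limit of detection, with 8 counts (0.0343 FPKM) and 3 counts (0.00939 FPKM). Only Lama5, of the 3 alpha chains measured, reached 1 FPKM. With Lama1 and Lama3 not analysed, the alpha chains do not sum to a total.

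Basement membrane linkers ranged from 7.12 FPKM for Nid1 to 35.1 FPKM for Nid2. Nid2 had 35.1 FPKM (34.2 to 35.9) and its paralog Nid1 had 7.12 FPKM (6.74 to 7.50), a ratio of 4.93 (4.65 to 5.22), which was 5.73 on the model length. Both nidogens bind laminin gamma1 and type IV collagen. Hspg2, which encodes the heparan sulfate proteoglycan perlecan, had 12.9 FPKM (12.6 to 13.2) from 7886 counts on a model of 14177 nt. Sparc, a collagen-binding matricellular protein, was second to Itgb1 among the members, at 73.2 FPKM (71.0 to 75.4). With the model length Sparc, at 86.8 FPKM, was below Col18a1, at 94.3 FPKM. Fn1, fibronectin, had 42.4 FPKM (41.7 to 43.1) from 12941 counts, the most of any member.

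**Figure D3:**
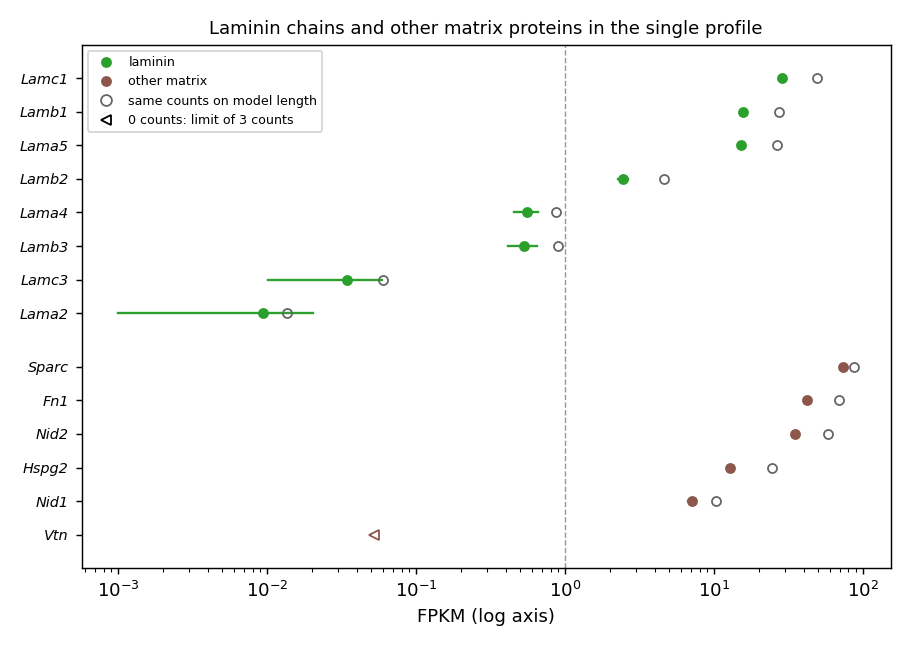
FPKM of 8 laminin chains (green) and the 6 matrix genes named singly (brown) on a log axis, with the authors' bounds as lines and the same counts on the model length as open circles. Lama5 and Lamb1 lie together at 15.3 and 15.7 FPKM below Lamc1 at 28.8 FPKM, and Vtn is drawn at the limit that 0 counts allow; a lower bound of 0 is drawn at the left end of its line.

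Among the collagens, 1 chain was abundant. Col18a1, a basement membrane collagen with heparan sulfate chains whose C-terminal fragment is endostatin, had 56.0 FPKM (54.9 to 57.1) from 10756 counts. It held most of the 16218 counts of the 42 collagen chains. Its relative Col15a1 had 0.0733 FPKM from 14 counts. The median collagen chain had 0.176 FPKM, against 1.94 FPKM over all genes.

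Type IV collagen, the network of the basement membrane, was next and of mixed level. Col4a1 had 5.24 FPKM (4.96 to 5.52) and Col4a2 had 2.07 FPKM (1.90 to 2.23). The ratio of Col4a2 to Col4a1 was 0.394 (0.359 to 0.434), and 0.465 (0.423 to 0.512) on the model length. The known trimer holds more alpha1 than alpha2 chains. Whether that bears on the ratio of the RNA levels was not tested. The other 4 chains, which belong to specialised membranes such as those of the kidney and the inner ear, ranged from 0.0632 FPKM for Col4a3 to 0.302 FPKM for Col4a5. Col4a6 was 0.214 of Col4a5 (0.113 to 0.380), and Col4a4 and Col4a3 could not be told apart, with a ratio of 1.27 (0.637 to 2.59).

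Col4a1 and Col4a2 are neighbouring genes transcribed in opposite directions. In RefSeq, on GRCm38.p6, their annotated starts lie 21 bases apart on chromosome 8, and the annotated transcripts overlap there. The starts of Col4a5 and Col4a6 lie 1343 bases apart on chromosome X. The windows around the Col4a1 and Col4a2 starts share 78 bases. These bases are shown because they lie at the annotated starts of 2 partner chains whose levels differed by more than counting error.
Col4a1 and Col4a2, chr8:11312777-11312854, plus strand: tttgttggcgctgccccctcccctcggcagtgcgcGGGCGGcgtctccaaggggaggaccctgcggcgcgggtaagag
The capitals mark the only GGGCGG, searched on both strands, which 35.7% of the 32851 RefSeq promoter windows held. CCAAT, searched likewise and held by 37.4% of the windows, is not spelled in these 78 bases. Both shares are over whole windows, which are longer than 78 bases, so they are not rates for a stretch of this length.

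The collagens outside types IV, XV and XVIII had 34 chains, of which 4 reached 1 FPKM, against 11 of 20 chains and linkers of the basement membrane, a grouping made after the values were seen. The shares are 11.8% and 55.0%, and that of the basement membrane is close to the 56.0% of all genes. These 4 were Col5a1, which regulates fibril diameter, at 3.11 FPKM (2.92 to 3.31), the cartilage chains Col9a2 at 2.07 FPKM (1.8 to 2.35) and Col9a3 at 1.33 FPKM (1.09 to 1.57), and Col2a1 at 1.07 FPKM (0.936 to 1.20). The third chain of type IX, Col9a1, had 0 counts, with a limit of 0.0230 FPKM. Together the 34 chains summed to 14.5 FPKM, against 187 FPKM for the 20 of the basement membrane. Summed levels on the model length were 24.7 and 320 FPKM.

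Of type I collagen, the main fibril of connective tissue, Col1a1 lay close to the threshold. Col1a2 lay below it, also on the model length, at 0.825 FPKM. Col1a1 had 0.902 FPKM (0.774 to 1.03) and 1.87 FPKM on the model length, and Col1a2 had 0.543 FPKM (0.432 to 0.653). The ratio of Col1a2 to Col1a1 was 0.601 (0.466 to 0.771) and 0.441 on the model length. Col3a1, their usual companion in fibroblasts, had only 0.0862 FPKM from 18 counts. Col5a2, at 0.668 FPKM, lay below Col5a1, at 3.11 FPKM, and above Col5a3, at 0.0537 FPKM. Col11a1 had 0.575 FPKM, above Col11a2 at 0.234 FPKM.

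Of the 6 type VI chains, which form beaded filaments, Col6a5 had 0.345 FPKM (0.281 to 0.410), Col6a4 0.240 FPKM (0.184 to 0.296) and Col6a6 1 count. Col6a3, which the common trimer requires, had 2 counts (0.00502 FPKM), against 25 counts for Col6a1 (0.134 FPKM) and 51 counts for Col6a2 (0.263 FPKM, 0.189 to 0.336). The intervals of Col6a5 and Col6a2 overlap, and on the model length Col6a2, at 0.604 FPKM, was above Col6a5, at 0.547 FPKM. Col7a1, the anchoring fibril of skin, had 0.810 FPKM (0.724 to 0.896) and 1.71 FPKM on the model length. The network collagens other than type IV were Col8a2 at 0.247 FPKM, Col8a1 at 0.117 FPKM and Col10a1 at 0.0274 FPKM. The fibril-associated chains other than type IX (Col12a1, Col14a1, Col16a1, Col19a1, Col20a1 and Col22a1) ranged from 0.0139 FPKM for Col20a1 to 0.178 FPKM for Col16a1, and on the model length Col22a1, at 0.289 FPKM, was just above Col16a1, at 0.280 FPKM. The 3 transmembrane chains had 0.131 FPKM (Col13a1), 0.174 FPKM (Col23a1) and 0.208 FPKM (Col25a1), with overlapping intervals, and on the model length Col23a1, at 0.203 FPKM, was below Col13a1, at 0.213 FPKM. Of the 3 chains that the grouping used here left outside these classes, Col27a1 had 0.535 FPKM, and Col28a1 and Col24a1 had 4 and 2 counts.

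**Figure D4:**
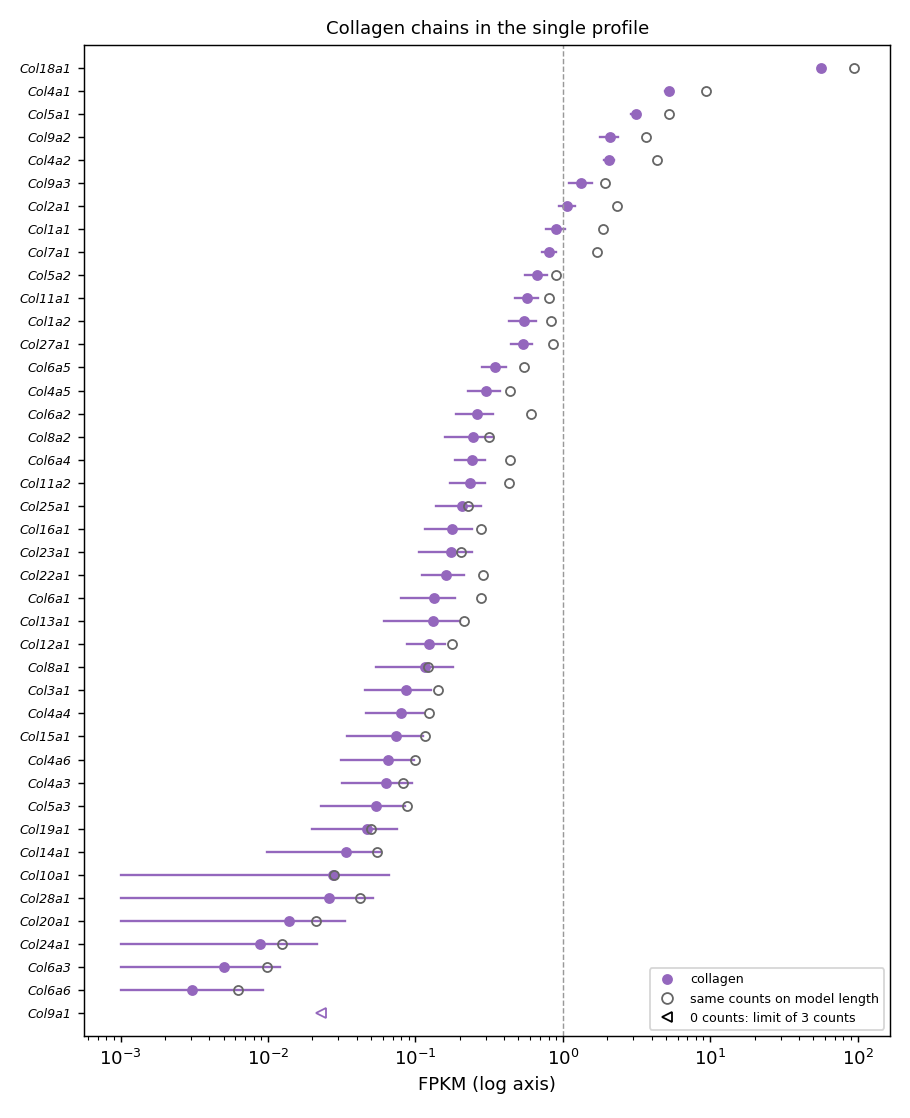
FPKM of the 42 collagen chains on a log axis, with the authors' bounds as lines (a lower bound of 0 is drawn at the left end), the same counts on the model length as open circles, and a dashed line at 1 FPKM. Col18a1 at 56.0 FPKM is an order of magnitude above Col4a1 at 5.24 FPKM, and 35 chains lie below 1 FPKM.

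Ratios between partner chains were computed for 22 pairs, of which 12 kept their value within the counting interval on the model length. No ratio distinguishable from 1 changed its direction. The plot of chain ratios shows both versions.

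**Figure D5:**
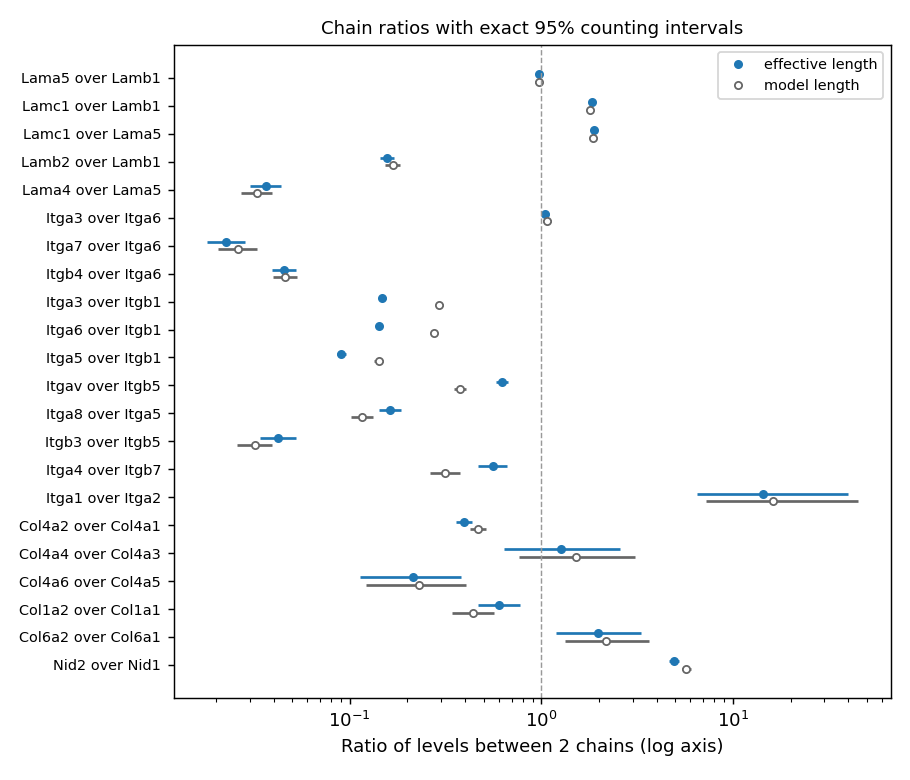
Ratio of the level of the first chain to that of the second, on a log axis, with exact 95% counting intervals; filled points use the effective length and open points the model length. Lama5 and Lamb1 meet the dashed line of equal levels, while the ratios of Itga3 and Itga6 to Itgb1, at 0.148 and 0.142 on the effective length, move to 0.294 and 0.276 on the model length.

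A further 5 symbols fit the pattern without being matrix or receptor chains. Col4a3bp, the ceramide transfer protein, had 15.7 FPKM and 3 TATTTAT sites. Itgb3bp, a centromere protein, had 6.82 FPKM and Itgb1bp1, a cytoplasmic binder of the beta1 tail, had 5.72 FPKM. Itgb1bp3, a nicotinamide riboside kinase, had 0.786 FPKM and Itgb1bp2, the muscle chaperone melusin, had 0.388 FPKM. Without these 5, 26 of 78 members reached 1 FPKM.

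Of the genes of integrin adhesion, which encode actin linkers and signalling proteins, 25 of 26 measured reached 1 FPKM (96.2%, against 56.0% of all genes). Their median was 20.8 FPKM. Talin Tln1, which switches integrins on, had 12.6 FPKM and Tln2 had 3.45 FPKM. The co-activator kindlin Fermt2 had 34.2 FPKM, against 3.24 FPKM for Fermt1. Vinculin (Vcl) had 31.0 FPKM, the integrin-linked kinase Ilk 27.5 FPKM and the focal adhesion kinase Ptk2 16.2 FPKM. The exception was Tns1 at 0.521 FPKM.

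Of the enzymes and chaperones of collagen synthesis, 18 of 24 measured genes reached 1 FPKM (75.0%, against 56.0% of all genes). Their median was 5.29 FPKM. P4hb, which also serves general protein folding, had 96.1 FPKM and the collagen chaperone Serpinh1 had 21.6 FPKM. Plod2, a lysyl hydroxylase, had 28.4 FPKM, the prolyl hydroxylase subunit P4ha1 had 10.5 FPKM and Adamts2, which trims fibrillar procollagen, had 0.126 FPKM. Among proteases and inhibitors of the matrix, 7 of 11 reached 1 FPKM (63.6%, against 56.0% of all genes) and 3 reached 5 FPKM. The membrane protease Mmp14 was highest at 11.9 FPKM, and Mmp3 and Mmp13 had 0 counts.

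Other matrix genes and non-integrin receptors reached 1 FPKM in 20 of 34 cases (58.8%, close to the 56.0% of all genes), with a median of 3.31 FPKM, and 12 reached 5 FPKM. Laminin receptors outside the integrin family were among them, with Bcam at 44.4 FPKM and the dystroglycan gene Dag1 at 30.1 FPKM. Agrn, the basement membrane proteoglycan agrin, had 32.3 FPKM and the integrin ligand Spp1 had 99.8 FPKM. Of the collagen receptor kinases, Ddr1, which also binds type IV collagen, had 20.4 FPKM and Ddr2 had 0.0713 FPKM. The stromal genes Tnc and Postn were the only 2 of the 34 with 0 counts. Other matrix genes of the list lay on both sides of 1 FPKM. Thbs1, at 11.2 FPKM, and Vcan, at 3.65 FPKM, were above it, and Dcn, at 0.253 FPKM, and Lum, at 0.225 FPKM, below it.

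Markers of cell types were read beside these levels, because several members also mark other cells. All 8 stem cell markers reached 1 FPKM, against 56.0% of all genes, from 13.9 FPKM for Klf4 to 605 FPKM for Pou5f1. Of 9 measured primitive endoderm markers, a cell type known for much Sparc, laminin and type IV collagen, 1 did (11.1%). This was Dab2 at 3.05 FPKM. Gata4 had 0.451 FPKM, Sox17 0.0562 FPKM and Afp 0 counts, and the list summed to 5.46 FPKM. Of 8 fibroblast markers 1 (12.5%) reached 1 FPKM, Thy1 at 3.74 FPKM. Postn and Fap had 0 counts, and the list summed to 5.12 FPKM. Endothelial markers did so in 3 of 5 cases (60.0%, close to the 56.0% of all genes). Pecam1 was highest at 5.61 FPKM and Cdh5 had 0.0688 FPKM. Blood markers did so in 2 of 4, Hba-a1, which has a near-identical copy, at 71.8 FPKM and Cd68 at 5.32 FPKM, while Ptprc had 1 count. With 1 profile, the part of such cells in the levels of the members was not tested.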

How the data were processed

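RNA sequencing of the E14 line was deposited as 1 table. The submitters' processing notes name eXpress 1.1.1, the mm9 build, Bowtie 1.1.2 and CASAVA 1.8.2, with settings not given in the sources used. Per the file headers, the authors' columns are counts (total and unique, equal in every row), estimated counts of the same value, and FPKM with its bounds, as deposited. FPKM was checked to equal the counts over effective length and total, and the bounds to lie about 2 square roots of the count away. The row that names no gene, 22625281 (100% of the gene total), was left out. Strand handling is not given, so overlapping genes cannot be told apart.

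Members and lists were chosen with earlier results of these data known. Members are described by class, with values for each at 1 FPKM or more and values or ranges below it, as the rule set down at the start asks. The value of 1 member is left out. No column names a library, so the planned comparisons between groups were not run and no test was made. Ratios carry exact (Clopper-Pearson) 95% intervals on the counts, and intervals and limits for 0 counts (3 counts) cover counting error only. Their calculation was tested on simulated data. 3′ untranslated regions came from the GENCODE M21 coding transcript nearest in length to the model, within 10% and at least 50 nt long. That step and its motifs were added after the table was seen. Alternatives were the model length, thresholds of 5 and 0.5 FPKM, a minimum of 10 counts, the lower bound, and leaving out the 5 other proteins. Tools were scipy 1.17.1, pandas 2.3.3, matplotlib 3.10.9 and numpy 2.4.6 under Python 3.11.15.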

Additional observations from a re-analysis of the deposited data

How the results depend on the processing

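No paired analysis was possible because no column is tied to a library. The alternatives planned for group comparisons (pseudocounts, filter, replicate block, leaving out replicates) were not run for the same reason. At 5 FPKM the counts were 18 members, 2 collagens, 3 integrin alpha chains and 3 laminins. At 0.5 FPKM they were 13 collagens and 6 integrin beta chains. With the model length, 5 integrin beta chains reached 1 FPKM. The other counts of members and classes stayed within 1.5 times, and a minimum of 10 counts or the lower bound moved none beyond that.

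On the model length, 56 of the 80 members with counts were higher beyond their bounds, 2 lower and 22 within them. Ratios that left their interval were Itga3 to Itgb1 (0.294), Itga6 to Itgb1 (0.276), Itga5 to Itgb1 (0.142), Itgav to Itgb5 (0.377), Itga8 to Itga5 (0.116), Itgb3 to Itgb5 (0.0321), Itga4 to Itgb7 (0.315), Col4a2 to Col4a1 (0.465), Col1a2 to Col1a1 (0.441) and Nid2 to Nid1 (5.73). These shifts follow from the ratio of effective to model length, which differs between partners. With TTATTTATT in place of TATTTAT, a choice made after seeing the data, the members' share was 9.33%. There are no replicates, and members with few counts have wide intervals.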
